A study of Mus musculus with 35 samples.

Results

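Smooth muscle contractile genes encode the proteins with which mural cells, the pericytes and vascular smooth muscle cells that wrap blood vessels, can tighten the vessel wall. The 10 genes Acta2, Tagln, Myl9, Mylk, Cnn1, Myh11, Des, Tpm2, Cald1 and Smtn were chosen by name from this programme with earlier results of these data known, and make up 10 of the 53465 genes of the bulk table, in which all 10 were found by their Ensembl identifier. All 10 were tested in the bulk libraries, where each passed a mean of at least 10 normalized counts, and 6 passed the filter on low counts in the single-cell sums.

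In smooth muscle, calcium activates myosin light chain kinase, which phosphorylates the regulatory light chain of myosin and lets myosin pull on actin filaments. Tropomyosin, caldesmon and calponin sit on the actin filament and restrain or tune this pull, and desmin ties the filament system together. Transcription of many of these genes runs through serum response factor (SRF), which binds a DNA element called the CArG box, and its coactivator myocardin. In the brain, arteriolar smooth muscle is known for high ACTA2, TAGLN and MYH11, whereas capillary pericytes carry little of them.

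All samples came from the E14.5 mouse brain. Bulk RNA-seq covered neural, mural, endothelial and microglial populations sorted by FACS from each of 3 wild-type brains, which gave 12 libraries. Library names join the population (N, Mu, Ec or Mi) to the number of the brain, so that N-340, Mu-340, Ec-340 and Mi-340 share a brain, and values are given in the order of Mu-340, Mu-343 and Mu-346. scRNA-seq by mCEL-Seq2, which counts tagged 3' ends of transcripts, covered 11 wild-type libraries on plates 1 to 3, labelled as a mixture of the 4 populations with the sort gate known for most wells, and 12 libraries labelled Mof knockout on plates 4 to 6, with no gate given. Mof is the histone acetyltransferase encoded by Kat8. The wild-type single cells came from 3 brains, per the study's text. The driver of the deletion, the brains behind each plate and the relation of knockout to wild-type embryos are not given in the sources used here.

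The mural population was defined by PDGFRB, and in single cells the mural gate was PDGFRB high, PECAM1 low and negative for CD45 and CD41. Whole reads recovered from the bulk table ran from 17638358 to 98414914 per library. The 3 neural libraries were made with another RNA kit and another library kit than the other 9, so kit and population cannot be told apart for them. A bulk difference can come from fewer cells of a type or from less RNA per cell, and these cannot be told apart. Wells with more than 1500 transcripts were kept, which left 210 of the mural gate (median 6885 transcripts per well), 123 neural (7717), 225 endothelial (6408), 128 microglial (10761) and 337 of plate 4 (7912). All 10 mural marker genes, such as Rgs5, Kcnj8 and Abcc9, were called higher in the mural bulk libraries. Of 10 microglial markers 8 were at no more than 1.14 normalized counts in every mural library, while Cx3cr1 was at 6.99, 0 and 5.64 and Csf1r at 74.3, 108.4 and 97.7, higher than in endothelial and neural libraries (limma adjusted p = 0.0107 and 0.000187). Of 7 haemoglobin and red cell genes 5 were called lower and none higher, where 22.7% and 19.3% of all genes were. Libraries of the same plate layout share their 96 cell barcodes, which holds for 121 pairs of libraries, while 132 pairs share none.

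Acta2 and Myl9 carry CArG-like elements close to their start, and their upstream runs are shown because both were higher in mural libraries while their mural levels stood far apart. The sequences are the 250 bases before the start in RefSeq (GRCm38.p6), read 5' to 3' on the gene's strand. This start lies inside the gene bounds of the GRCm38 annotation given with the values, so that most of the Acta2 run and the end of the Myl9 run fall within those bounds. Acta2 lies on the minus strand at chr19:34255374-34255623 and Myl9 on the plus strand at chr2:156775214-156775463. Capitals mark each CArG box, a pair of C, a run of 6 bases that are A or T, and a pair of G, or the same with 1 departure inside the run. The element reads alike on both strands, so a single search covers both, and matches do not overlap here.
Acta2: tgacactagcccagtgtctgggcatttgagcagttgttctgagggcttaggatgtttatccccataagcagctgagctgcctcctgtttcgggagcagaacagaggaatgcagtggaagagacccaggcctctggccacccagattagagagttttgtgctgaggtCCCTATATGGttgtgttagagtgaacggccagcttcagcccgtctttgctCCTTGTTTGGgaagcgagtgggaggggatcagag
Myl9: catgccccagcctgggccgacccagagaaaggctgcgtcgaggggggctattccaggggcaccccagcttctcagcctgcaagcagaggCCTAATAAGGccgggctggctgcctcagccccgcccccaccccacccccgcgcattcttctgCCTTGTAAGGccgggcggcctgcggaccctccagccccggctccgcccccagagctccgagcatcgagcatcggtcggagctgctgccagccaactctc
In the Acta2 run CCCTATATGG begins 84 bases before the start and CCTTGTTTGG 34 bases before it, each with 1 departure. The Myl9 run holds the full box CCTAATAAGG from 161 bases before the start and CCTTGTAAGG, with 1 departure, from 99 bases before it. Of 32851 promoter entries of this length, 482 (1.47%) held a full box, 2823 (8.59%) a box or a match with 1 departure, and 220 (0.670%) at least 2 such places. The entries for Mylk, Cnn1, Des, Tpm2, Cald1 and Smtn held no such letters in this window, which says nothing of the factor. Tagln and Myh11 were not matched to an entry.

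The first question was how far each gene was carried by mural cells against the other 3 populations. In bulk, 6 of the 10 genes were higher in mural libraries than in the mean of the 3 others, and none was lower. These were Myl9, Mylk, Cald1, Acta2, Des and Tpm2. In this comparison 19.3% of the 19765 genes tested were called higher and 22.7% lower (limma on log2 values, adjusted p under 0.05), and the median log2 difference was 4.90 over the 10 genes against -0.10 over all genes. With edgeR and DESeq2 on recovered reads 6 were called higher too (20.4% and 20.1% of all genes). For the same 6 genes the 3 mural libraries lay above the 9 others, which was so for 7.25% of all genes.

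Myosin and its kinase come first. Myl9 (chr2:156775420-156781658, plus strand), the regulatory light chain, reached 33861, 37119 and 35158 normalized counts in Mu-340, Mu-343 and Mu-346. Its values were 102.8, 119.1 and 130.8 in neural, 563.5, 268.3 and 380.1 in endothelial and 63.0, 121.0 and 34.0 in microglial libraries. The groups were far apart, and the log2 difference to the mean of the others was 7.94 (SE 0.34, limma adjusted p = 1.04e-07).

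Mylk (chr16:34745210-35002420, plus strand), the kinase that phosphorylates this light chain, stood at 14928, 14844 and 16182 in mural libraries. Endothelial libraries were the next, at 1134, 2067 and 2274, followed by neural at 98.8, 77.0 and 116.5 and microglial at 5.94, 40.3 and 18.9. Mural was higher by 3.13 on the log2 scale than endothelial (SE 0.54, limma adjusted p = 0.00144) and by 9.74 than microglial (SE 0.54, adjusted p = 1.8e-07).

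Myh11 (chr16:14194535-14291372, minus strand), the smooth muscle myosin heavy chain that defines mature smooth muscle, behaved otherwise. Mu-340 held 239.9 normalized counts, against 2.28 and 6.57 in Mu-343 and Mu-346. Neural libraries held 9.35, 4.98 and 6.87, endothelial 0, 0 and 6.03, and microglial 0, 1.19 and 7.55. A single mural library was thus high and the other two lay within the range of the other populations, and the log2 difference of 2.41 was not called (SE 1.20, limma adjusted p = 0.132). Without Mu-340, Myh11 fell below the filter. The libraries of this brain held Xist at 7846 to 31056 normalized counts and no Uty, whereas those of the other two held Uty at 290 to 1501, so that embryo sex and brain cannot be told apart here or in the values of Acta2 and Myocd.

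Among actin and its partners, Acta2 (chr19:34241090-34255590, minus strand), the smooth muscle actin, was at 455.3, 1065 and 932.7 in mural libraries. It was low elsewhere, with 2.67, 3.32 and 2.64 in neural, 1.77, 58.2 and 7.54 in endothelial and 8.32, 36.8 and 2.52 in microglial libraries. Ec-343 and Mi-343 were the highest of their groups. The log2 difference was 6.63 (SE 0.92, limma adjusted p = 0.000227). With the brain of Mu-346 left out, the pairwise calls were lost, with adjusted p = 0.0501 against endothelial and 0.055 against microglial.

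Tagln (chr9:45929619-45936058, minus strand), transgelin, an actin crosslinker often used beside Acta2 as a smooth muscle marker, did not share this pattern. Its mural values of 21.0, 41.1 and 71.4 overlapped the neural values of 40.1, 35.4 and 50.2. Endothelial libraries held 8.86, 7.10 and 27.2 and microglial libraries 1.19, 11.9 and 13.9. The log2 difference of 1.34 to the mean of the others was not called (SE 0.71, limma adjusted p = 0.153). Against microglia alone it was called at 2.44 (adjusted p = 0.0453), and that call was lost without any 1 of the 3 brains (adjusted p = 0.116 to 0.143), with edgeR on recovered reads (0.0816) and without the filter (0.0731). Tagln overlaps Pcsk7 on the other strand, and Mylk, Cald1, Smtn and Des overlap non-coding genes there, and reads of both strands cannot be told apart where counting ignored strand.

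Cnn1 (chr9:22099216-22109630, plus strand), calponin, was barely present. Mural libraries held 0, 1.14 and 14.1 normalized counts and neural libraries 4.01, 1.11 and 1.59, while endothelial libraries held 23.0, 19.9 and 19.6 and microglial libraries 10.7, 10.7 and 36.5. Every endothelial library was above every mural library. The log2 difference of mural to endothelial was -2.77 (SE 0.94, limma adjusted p = 0.0488), a call that was not made with the brain as a block (adjusted p = 0.0524), by edgeR (0.314) or DESeq2 (0.242) on recovered reads, or without the brain of Mu-340 (0.294) or of Mu-343 (0.274), and without that of Mu-346 the gene fell below the filter. Against the mean of all 3 others it was not called at -1.71 (adjusted p = 0.0969), except without Mu-346, where it was -2.83 (adjusted p = 0.00627), and against endothelial and microglial libraries together, where it was -2.61 (adjusted p = 0.028).

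Tpm2 (chr4:43514711-43523765, minus strand), a tropomyosin, was at 2138, 2307 and 2014 in mural libraries. Microglial libraries came next at 683.5, 592.9 and 405.4, ahead of neural at 108.2, 84.2 and 81.1 and endothelial at 120.5, 22.7 and 21.1. The mural difference to microglial was 1.97 on the log2 scale (SE 0.57, limma adjusted p = 0.0183) and missed the threshold without the brain of Mu-343 (0.122) or of Mu-346 (0.135). Against endothelial it was 5.75 (SE 0.57, adjusted p = 3.1e-05).

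Cald1 (chr6:34598500-34775473, plus strand), caldesmon, had the most counts of the 10 genes, with 98650, 98654 and 81359 in mural libraries. It was also well present in endothelial libraries, at 15946, 18161 and 15605, and in neural libraries, at 1838, 1728 and 1809, but held only 278.1, 183.8 and 120.9 in microglial libraries. The 4 populations did not overlap. Mural was higher by 2.48 on the log2 scale than endothelial (SE 0.24, limma adjusted p = 2.37e-05).

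Smtn (chr11:3517523-3540612, minus strand), smoothelin, an actin-associated protein, was highest in endothelial cells. Those libraries held 7704, 11908 and 8956 normalized counts, against 1057, 1031 and 1375 in mural, 568.9, 521.1 and 576.5 in neural and 247.2, 311.9 and 204.0 in microglial libraries. The order endothelial, mural, neural, microglial held without overlap. Mural was lower than endothelial by a log2 difference of -3.03 (SE 0.22, limma adjusted p = 3.43e-06), and higher than microglial by 2.19 (adjusted p = 1.69e-05) and than neural by 1.04 (adjusted p = 0.00215). The difference to the mean of the 3 others was 0.07 and turned negative without the brain of Mu-346 (-0.12).

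Des (chr1:75360329-75368579, plus strand), the intermediate filament desmin, was at 473.2, 499.9 and 517.5 in mural libraries and had no read in any endothelial library. Neural libraries held 2.67, 0.55 and 3.43, and microglial libraries 0, 14.2 and 0. Against endothelial, with the floor set at 3 reads over the 3 libraries, the mural mean of Des was 317 times that floor. The limma difference to the mean of the 3 others was 8.004 on the log2 scale (SE 0.78, adjusted p = 2.25e-05). Des passed the mean of at least 10 through the mural libraries only, and was called without that filter too.

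**Figure D1:**
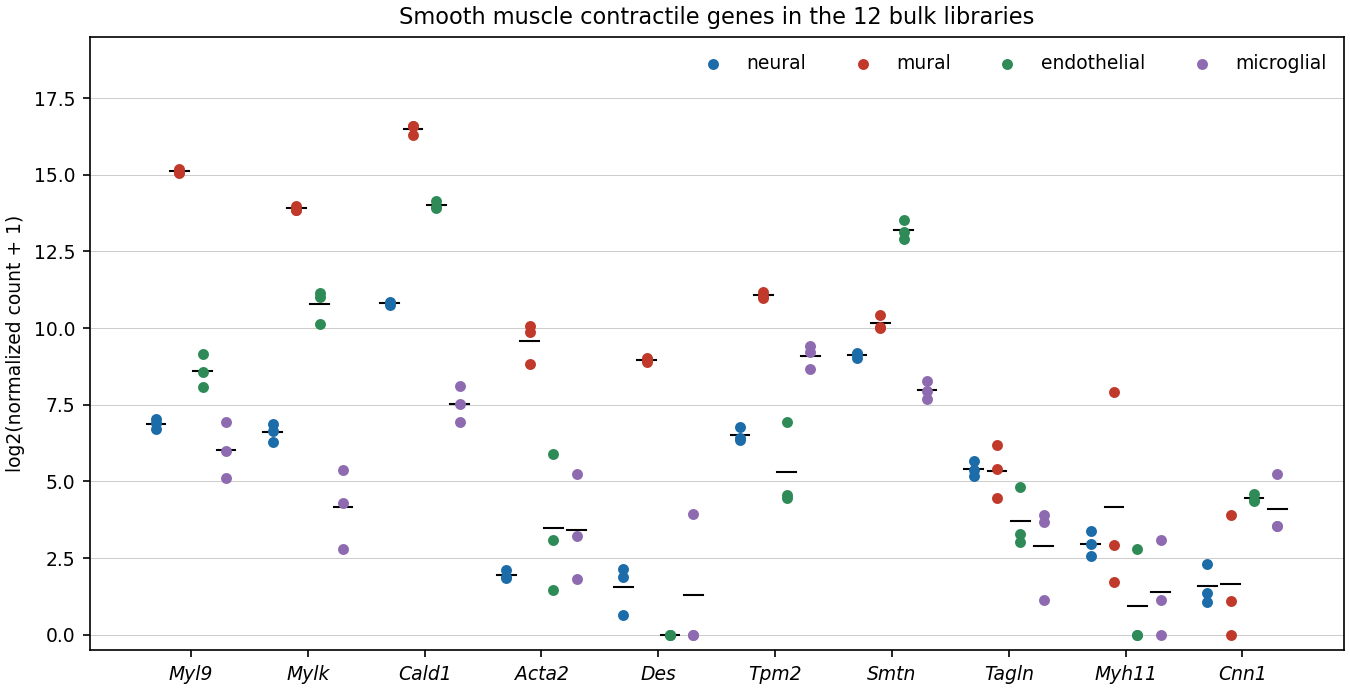
Levels of the 10 genes in the 12 bulk libraries, as log2(normalized count + 1), where each point is 1 library, colours are the populations and black lines are means over 3 brains. Myl9, Mylk, Cald1, Acta2, Des and Tpm2 have all 3 mural points above the other 9, Smtn has its endothelial points on top, and Myh11 has 1 mural point at 239.9 normalized counts far above the rest.

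Exact permutation tests of 3 mural against 9 other libraries, two-sided on log2 values, gave p = 0.00909 for each of Acta2, Myl9, Mylk, Des, Tpm2 and Cald1. This is the smallest value that free relabelling of the 12 libraries allows two-sided. It follows from the 3 mural libraries of these genes lying above the 9 others, and is no further evidence. The relabelling ignored that each brain gave all 4 populations. The tests gave 0.136 for Tagln, 0.164 for Cnn1, 0.173 for Myh11 and 0.991 for Smtn.

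Pairwise, 6 genes were higher and 2, Cnn1 and Smtn, lower in mural than in endothelial libraries (13.5% and 14.3% of all genes). Smtn alone was lower with the brain as a block, with edgeR and with DESeq2. Against microglial libraries 8 were higher and none lower (17.9% and 20.1%), with Tagln and Smtn added to the 6, and 5 were higher without the brain of Mu-346. Against neural libraries 7 were higher and none lower (25.8% and 28.7%), with Smtn added. These 3 comparisons share the mural libraries and are no independent evidence for each other.

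**Figure D2:**
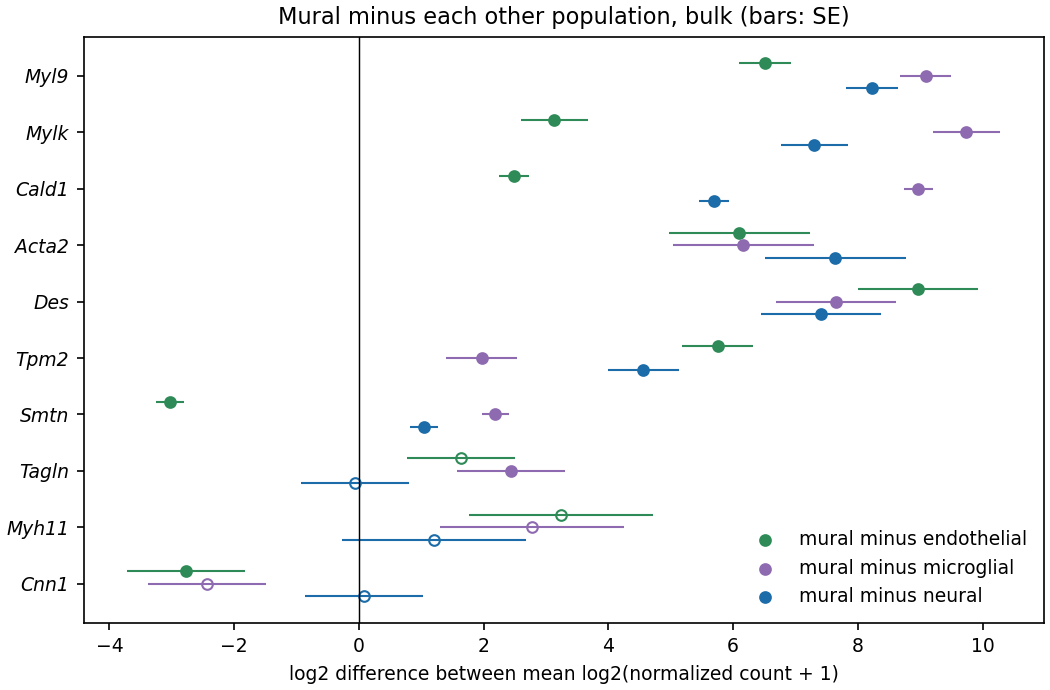
Log2 difference of mural to endothelial, microglial and neural bulk libraries for each gene (x axis, difference between means of log2(normalized count + 1) over 3 libraries each); bars are standard errors, filled points have an adjusted p under 0.05 and open points do not. Smtn and Cnn1 lie left of 0 against endothelial libraries, whereas Des, Myl9 and Acta2 lie at 6.10 or more in all 3 comparisons.

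Levels were divided by the length of all annotated exons of a gene merged, which lowers genes with many forms. Per kilobase of such exon, the mural level ran from Myl9 (30447 ± 1412 normalized counts per kb, SD, n = 3) through Cald1 (7714 ± 829), Mylk (1360 ± 66.6), Tpm2 (740.0 ± 50.6), Acta2 (372 ± 146), Smtn (264 ± 43.8) and Des (132 ± 5.94) to Tagln (22.4 ± 12.8), Myh11 (10.9 ± 17.9) and Cnn1 (1.86 ± 2.86). Neighbours in this order from Acta2 to Smtn, and from Tagln to Cnn1, did not differ beyond their spread. Counts of 3' ends in single cells of the mural gate, which need no length, gave another order. In 1000000 transcripts Cald1 had 2007, Myl9 708, Mylk 657, Tpm2 47.1, Des 31.0, Smtn 30.3 and Acta2 9.03. The order of the genes thus depends on the measure. Myl9, Mylk, Cald1, Tpm2 and Des varied little between brains, whereas Acta2, Tagln, Myh11 and Cnn1 varied most relative to their means. Cald1, Tpm2 and Mylk each make muscle and non-muscle forms, and Smtn makes several forms, which counts per gene pool.

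Relatives of the 10 genes listed as non-muscle counterparts, a label that does not hold strictly for each, were called in both directions in bulk. Of 17 tested, 9 were higher and 6 lower in mural libraries (median log2 difference 0.47), where 19.3% and 22.7% of all genes were. In the single-cell sums 8 of 15 were higher and 1 lower (median 0.88), where 13.5% and 8.3% of all genes were. Higher were Cnn2 by 2.71 and Cnn3 by 2.01, non-muscle calponins, Tagln2 by 2.17, Tagln3 by 1.99, the light chain Myl12a by 1.86, the tropomyosins Tpm4 by 1.79 and Tpm1 by 1.61, the heavy chain Myh9 by 1.04 and Actb by 0.47, on the log2 scale. Actb reversed to -0.26 when the neural libraries were left out of the mean. Lower were Myh14 (-3.14), Actg1 (-1.41), Myl12b (-0.85), Nes (-0.80), Myh10 (-0.75) and Tpm3 (-0.26). Vim (0.35) and Smtnl2 (-2.23) were not called and Mylk3 fell below the filter. Per kilobase, the mural means of Cnn2 and Tagln2 were 4969 and 4544 normalized counts, against the 1.86 of Cnn1 and the 22.4 of Tagln.

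Of 26 other genes of contraction that were tested, 16 were higher and 3 lower in mural libraries (median 1.86), where 19.3% and 22.7% of all genes were. The furthest apart on the log2 scale were Gucy1a1 by 9.46, a subunit of soluble guanylate cyclase, Mrvi1 by 9.15, a substrate of the cGMP-dependent kinase, Kcnmb1 by 8.63, the smooth muscle subunit of the BK potassium channel, and Gucy1b1 by 8.36, the other subunit of the cyclase (limma adjusted p from 2.39e-06 to 0.000257). Lmod1, a smooth muscle actin nucleator, was at 152.5, 565.0 and 268.6 in mural libraries and higher by 4.67 (adjusted p = 7.38e-05), and Actg2, the enteric smooth muscle actin, fell below the filter. Among 11 tested regulators around SRF, 3 were higher and 2 lower, shares near those over all genes (19.3% and 22.7%). Myocd, myocardin, was at 36.7, 214.6 and 107.1 in mural libraries against a mean of 0.62 in neural, 0 in endothelial and 0.40 in microglial libraries, a log2 difference of 6.25 (SE 0.55, adjusted p = 1.03e-05). Srf itself was lower by a log2 difference of -2.45 (adjusted p = 4.72e-05), though the single-cell sums gave -0.34 (edgeR adjusted p = 0.385), and Mrtfa was lower by -2.92 (adjusted p = 0.000444), whereas Tead1 was higher by 1.71 (adjusted p = 0.0164, and 0.169 without the brain of Mu-340).

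Markers of other cell types were read beside these values. Of 11 striated muscle genes tested, 2 were higher and 3 lower, again near the shares over all genes (19.3% and 22.7%). Myl1 (69.5, 43.4 and 1.88) and Tnnt2 (105.3, 28.5 and 26.3), the 2 higher ones, stood at low mural levels. The call of Myl1 was lost without any 1 brain (adjusted p = 0.0517 to 0.334) and that of Tnnt2 without the brain of Mu-343 (0.123). Ryr2 and Myl2 were lower and at 0 in the mural libraries. Of 10 fibroblast genes tested, 7 were higher, led by Col3a1 (log2 difference 9.71), Col1a2 (9.45), Twist1 (7.11) and Col1a1 (6.91), and 1 lower. Others of this list, named after their values were seen as were Lmod1 and Actg2, were Dcn, higher by 4.86 (adjusted p = 9.46e-06) at 62.05, 156.4 and 92.05, Pdgfra, lower at 0, 0 and 0.94, and Dpt, at 0 in every mural library and below the filter. Of 10 endothelial markers 5 were higher and 3 lower in mural libraries than in the mean of the others, and against endothelial libraries alone none were higher and 7 lower (median -5.27). Of 10 neural markers 1 was higher and 4 lower. The part of such cells in the levels of the 10 genes was not tested.

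Across the 12 bulk libraries the genes most like the mean profile of the 10 were Gper1 (Pearson r = 0.979), Slc19a1 (0.974), Ssr3 (0.973), Fam20a (0.972), Laptm4a (0.961) and 4921531C22Rik (0.960). The correlation with that mean was 0.969 for Myl9, 0.940 for Mylk, 0.883 for Cald1, 0.860 for Des and 0.859 for Acta2, but 0.536 for Tagln, 0.501 for Tpm2, 0.473 for Myh11, 0.351 for Smtn and -0.298 for Cnn1. Each of the 10 genes is itself part of that mean, which raises its correlation. The libraries share brains and kits and fall into 4 populations, so all these correlations are descriptions of the ordering of populations.

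In single cells, 3 of the genes were found in most mural-gate wells and the others in 23.3% of them or fewer. Cald1 was found in 202 of 210 mural-gate wells (96.2%, exact 95% interval 92.6 to 98.3), Myl9 in 182 (86.7%, 81.3 to 91.0) and Mylk in 181 (86.2%, 80.8 to 90.6). Tpm2 was found in 49 wells (23.3%), Smtn in 37 (17.6%) and Des in 34 (16.2%). Acta2 was found in 10 wells (4.76%, 2.31 to 8.58), Tagln in 9 (4.29%), Myh11 in 4 (1.90%) and Cnn1 in none. A count of 0 in 210 wells allows up to 1.43% of wells with a transcript at the floor of 3 counts (exact upper limit 1.74%), which limits wells with a transcript and not cells that express the gene. Intervals and floors cover counting error only. Thinned to 1500 transcripts a well, the shares were 88.1% for Cald1, 61.0% for Myl9 and 51.4% for Mylk, and at most 4.76% for every other gene.

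The levels in the other gates differed by gene. In the 476 wells of the neural, endothelial and microglial gates Acta2 and Des were found in none, which allows up to 0.630% of wells with a transcript at the same floor (exact upper limit 0.772%). Levels of summed transcripts are given as CPM, transcripts of the gene in 1000000 transcripts of those wells. Acta2 was at 9.03 CPM (4.94 to 15.2) in the mural gate, 12.04 times the floor of 3 counts over the other gates. Des was at 31.0 CPM (22.8 to 41.1), 41.3 times this floor. These folds leave out the counting error of the mural value. Tagln was found in 13 of these wells (2.73%, 1.46 to 4.62), and its mural share of 4.29% (1.98 to 7.98) had an interval that overlapped theirs. Myl9 was found in 9.78% of endothelial, 6.50% of neural and 6.25% of microglial wells, and Mylk in 20%, 6.50% and 4.69%. Cald1 reached 52.9% of endothelial and 32.5% of neural wells but 12.5% of microglial wells, the deepest of the gates, an order that was also that of the bulk levels. Smtn was in 44.4% of endothelial wells (37.8 to 51.2) against 17.6% of mural wells (12.7 to 23.5), and Tpm2 in 10.2% of microglial wells against 1.33% of endothelial wells.

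Over sums per plate and gate, 5 of the 6 genes tested were higher in the mural gate than in the mean of the other 3 gates, where 13.5% of 9281 genes were called higher and 8.3% lower (edgeR quasi-likelihood test, adjusted p under 0.05). The log2 fold changes were 6.72 for Des (SE 0.75, adjusted p = 1.49e-10), 5.61 for Mylk (SE 0.30, 5.54e-23), 5.57 for Myl9 (SE 0.33, 2.72e-21), 4.70 for Cald1 (SE 0.28, 3.96e-21) and 3.30 for Tpm2 (SE 0.44, 8.32e-09). Smtn was not called at 0.72 (SE 0.42, adjusted p = 0.244) and passed without plate 3, at 1.28 (adjusted p = 0.0139). Without plate 1, Des and Tpm2 fell below the filter and 3 genes were called. Plate 3 gave only 10 mural-gate wells, against 95 on plate 1 and more on plate 2. The fitted fold of Des rests on a group at 0 and depends on the prior count. Des had no transcript in the other gates and passed the filter through the mural gate only. Its direction was thus fixed, and its call adds no support. Tpm2 was at 3.11 CPM in the neural, 1.80 in the endothelial and 12.4 in the microglial gate, against 47.1 in the mural gate. Its call may carry the same limit.

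By plate, Myl9 stood at 658.9, 765.8 and 467.0 CPM in the mural-gate wells of plates 1, 2 and 3, Mylk at 662.0, 646.5 and 741.7, and Cald1 at 2032, 2009 and 1758. Acta2 stood at 14.3, 5.91 and 0, from 9, 5 and 0 transcripts. Myl9 was lowest on plate 3, which gave 10 wells, and Acta2 rested on few molecules.

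**Figure D3:**
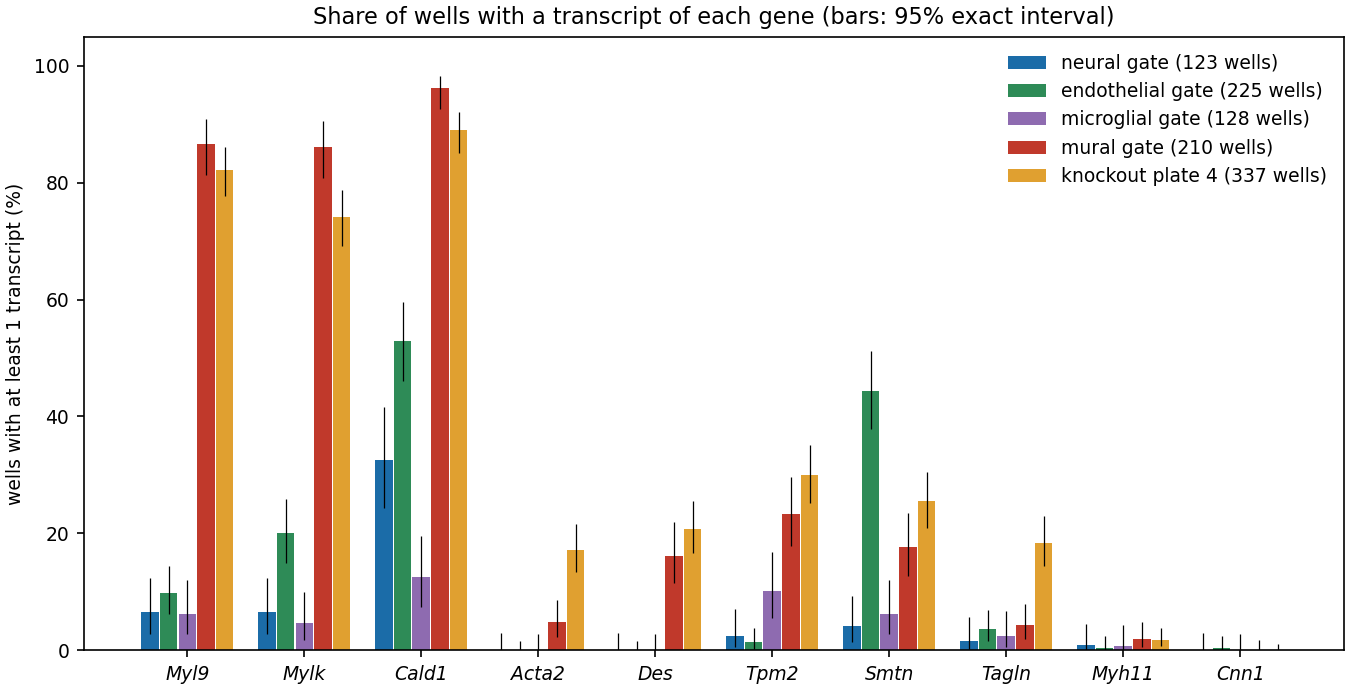
Share of kept wells with at least 1 transcript of each gene (y axis, percent) in the 4 wild-type gates and on knockout plate 4, with exact 95% intervals for counting error. Myl9, Mylk and Cald1 are in 86.2% to 96.2% of mural-gate wells, Smtn is highest in the endothelial gate at 44.4%, and Acta2 and Tagln are higher on plate 4 (17.2% and 18.4%) than in the mural gate.

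Which mural wells carried the genes together was then counted, with groups of genes chosen after their values were seen. Myl9, Mylk and Cald1 were found together in 169 of 210 mural-gate wells (80.5%), in 32.9% after thinning. Of the 182 wells with Myl9, 99.5% had Cald1 and 92.9% Mylk, against 75% and 42.9% of the 28 wells without it, which were shallower (median 4508 transcripts against 7198). The part of depth in this was not tested. The number of the 10 genes in a well peaked at 3 (80 wells), reached 4 in 59, 5 in 26, 6 in 7 and 7 in 1, and was 0 in 7 wells.

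Acta2, Tagln and Myh11 were found in 10, 9 and 4 mural-gate wells, too few to read apart or together. At least 1 of them or Cnn1 was found in 21 wells and at least 2 in 2 wells, both with Acta2 and Tagln, and in none after thinning. Tagln was in 20% of wells with Acta2 and in 7 of the 200 wells without it. The most Acta2 transcripts in a well were 3, in a plate 1 well that also held 15 of Myl9, 6 of Mylk, 11 of Cald1 and 2 of Tpm2 but none of Tagln. All 10 wells with Acta2 had Cald1, and 9 had Myl9 and 9 Mylk, where the shares without Acta2 were 96%, 86.5% and 86%. Their median depth was 8133 transcripts against 6811.

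Over the 210 wells, levels of Mylk and Cald1 (r = 0.599), Myl9 and Cald1 (0.550) and Myl9 and Mylk (0.433) were correlated. The genes most like the summed level of the 10, among 7671 found in at least 20 wells, were Rgs5 (r = 0.784), Col4a1 (0.764), Col4a2 (0.727), Igfbp7 (0.706), Abcc9 (0.669) and Fstl1 (0.648), which include genes of the mural cell and its basement membrane. Cald1 alone gave 3111 of the transcripts in this sum, Myl9 1098 and Mylk 1019, and the other genes at most 73 each. Wells share plates, libraries and a total count, and the sum had r = 0.205 with the depth of the well.

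The last question was the state of these genes on knockout plate 4. Kat8, the gene labelled as knocked out, was still found there at 12.7 CPM (8.90 to 17.6), against 16.3, 17.6 and 17.5 over all kept wells of wild-type plates 1, 2 and 3. Those wells pool all gates. Against the mural gate alone the ratio of Kat8 was 0.758, from 36 transcripts on plate 4 and 26 in the gate. A 3' tag outside the deleted part checks nothing, and that part is not given in the sources used here. The wild-type plates held 0 transcripts of Uty, 0 to 0.384 CPM of Ddx3y and 393 to 448 CPM of Xist. Plate 4 held 7.77 CPM of Uty, 75.5 of Ddx3y and 74.8 of Xist, so that embryo sex, genotype and plate cannot be told apart. Plate 4 carried no gate, but 293 of its 337 kept wells held at least 3 of the 10 mural markers and more of them than of any other marker list, and 195 of 210 mural-gate wells did so. Summed mural markers stood at 10257 CPM on plate 4 and 12381 in the mural gate. Endothelial markers stood at 446 against 536 and microglial at 37.8 against 95.5. Neural markers summed to 1660 against 626, of which Fabp7 (4025 transcripts against 679) and Sox2 (529 against 104) made up most, while Tubb3, Dcx, Neurod6, Stmn2, Stmn3 and Gad2 had ratios of 0.104 to 0.648. The part of these cells in what follows was not tested. With 1 plate there is no test between genotypes.

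Acta2 was found in 58 of the 337 wells of plate 4 (17.2%, 13.3 to 21.7), at 121.1 CPM (108.6 to 134.6), against 9.03 CPM from 14 transcripts in the mural gate. The ratio to the mural gate was 13.4 (7.88 to 24.8, counting error only), rank 52 among 11283 genes with at least 20 transcripts, and it was 8.49 against wild-type plate 1 alone and 20.49 against plate 2 alone. Tagln was found in 62 wells (18.4%, 14.4 to 23.0) with 189 transcripts, 66.7 CPM, a ratio of 10.3 (5.50 to 21.9) and rank 80, with 7.02 against plate 1 alone and 18.8 against plate 2 alone. In this comparison 7.52% of genes were at least 2-fold higher and 1.9% at least 2-fold lower on plate 4. Of the 8 genes with at least 20 transcripts, these 2 passed 2-fold upward and none downward, while Myh11 (9 transcripts against 4) and Cnn1 (none) had too few. Among wells with the mural markers alone, 293 on plate 4 and 208 on wild-type plates, of which 195 were of the mural gate, the ratios were 16.1 for Acta2 and 9.39 for Tagln, where 5.95% of genes were at least 2-fold higher and 1.54% lower.

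The ratios of the other genes lay nearer 1. Des was at 46.6 CPM on plate 4 and 31.0 in the mural gate, a ratio of 1.505 (1.07 to 2.14), Smtn gave 1.47 (1.04 to 2.10) and Tpm2 1.42 (1.08 to 1.88). Against wild-type plate 1 alone the ratio of Tpm2 was 1.05 and against plate 2 alone 1.95. Myl9 gave 1.05 (0.971 to 1.13), Mylk 0.842 (0.778 to 0.912) and Cald1 0.741 (0.708 to 0.777), beside a median of 1.04 over all genes. Myh11 was found in 6 wells with 9 transcripts against 4 in the mural gate, and Cnn1 in none, which allows up to 0.890% of wells with a transcript at the floor (exact upper limit 1.09%).

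All 4 libraries of plate 4 carried Acta2, at 105.4, 59.9, 219.6 and 91.0 CPM, from 13, 13, 19 and 13 wells, against 0 to 21.2 CPM in the 5 libraries with mural-gate wells. The interval of the highest of these (5.77 to 54.2, from 23 wells) overlapped that of plate 4 library 2 (43.8 to 79.8). Tagln stood at 58.7, 28.6, 95.6 and 86.2. The counts were uneven between wells, since the 5 wells with the most Acta2 held 52.8% of its transcripts. Without those wells the ratio of Acta2 to the mural gate was 6.49 (3.76 to 12.1), and that of Tagln without its own 5 wells was 5.84. In the mural gate the 5 highest wells held 64.3% of Acta2, and with the 5 highest wells left out on either side the ratio was 17.6 (7.37 to 54.8) for Acta2 and 14.3 (5.40 to 53.3) for Tagln. Unused barcodes of plate 4, which hold stray counts, had Acta2 in 7 of 384 barcodes, with 8 of 73021 transcripts or 109.6 CPM, and Tagln in 3. No such barcode held more than 536 transcripts in all, and the part of stray counts in wells with a single transcript was not tested.

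Acta2 and Tagln were found together in 30 wells of plate 4, against 2 in the mural gate, and in 6 wells after thinning against none. Tagln was in 51.7% of wells with Acta2 and in 11.5% of wells without it, Tpm2 in 53.4% and 25.1%, Des in 37.9% and 17.2%, and Myh11 in 6.90% and 0.717%. Wells with Acta2 were deeper, with a median of 9279 transcripts against 7719. Among mural markers, their levels against those of wells without Acta2 were 5647 and 5435 CPM for Rgs5, 453.0 and 516.1 for Kcnj8 and 481.0 and 391.7 for Notch3. Abcc9 was at 911.0 CPM in wells without Acta2, 771.2 in those with 1 or 2 transcripts and 685.4 in those with 3 or more. Myl9 was at 1320 against 582.6 CPM.

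At least 3 Acta2 transcripts were found in 19 wells of plate 4, spread over the 4 libraries, and in 1 well of the mural gate. Of these 19 wells, 18 had Myl9, 14 Tagln, 13 Tpm2, 11 Des and 3 Myh11, and they held a median of 7 of the 10 genes at a median depth of 11362 transcripts. The well with the most, in library 3, held 68 transcripts of Acta2, 39 of Tagln, 70 of Myl9, 30 of Cald1, 15 of Mylk, 7 of Tpm2, 2 of Des, 1 of Myh11 and 1 of Smtn, which is 9 of the 10 genes. At least 6 of the genes were found in 12.8% of plate 4 wells against 3.81% of mural-gate wells, and at least 7 in 6.53% against 0.476%. Plate 4 wells were deeper, and after thinning at least 6 were found in 3 of 337 wells against 0 of 210. The mean number was 3.59 on plate 4 and 3.37 in the mural gate, and 2.15 and 2.16 after thinning. Classes by Acta2 transcripts were chosen after their values were seen.

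**Figure D4:**
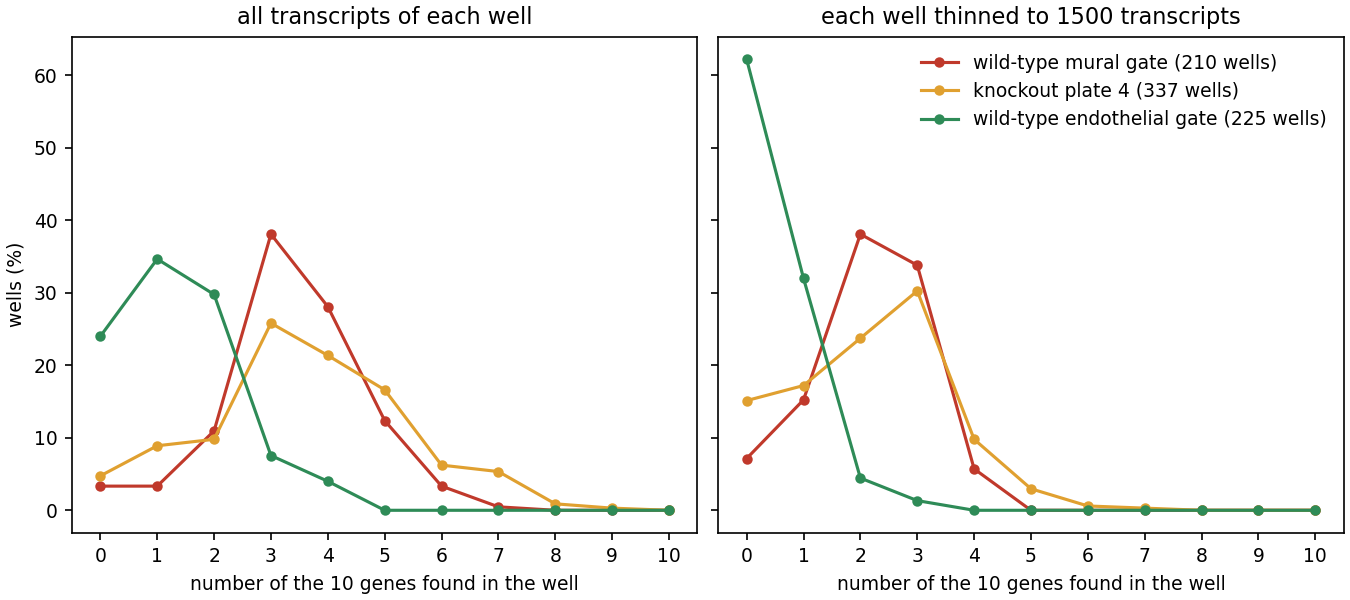
Percent of wells (y axis) by the number of the 10 genes found in the well (x axis), for the wild-type mural gate, knockout plate 4 and the wild-type endothelial gate, with all transcripts on the left and after thinning each well to 1500 transcripts on the right. Mural-gate wells peak at 3 genes on the left, and plate 4 has 22 wells with 7 or more genes where the mural gate has 1.

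**Figure D5:**
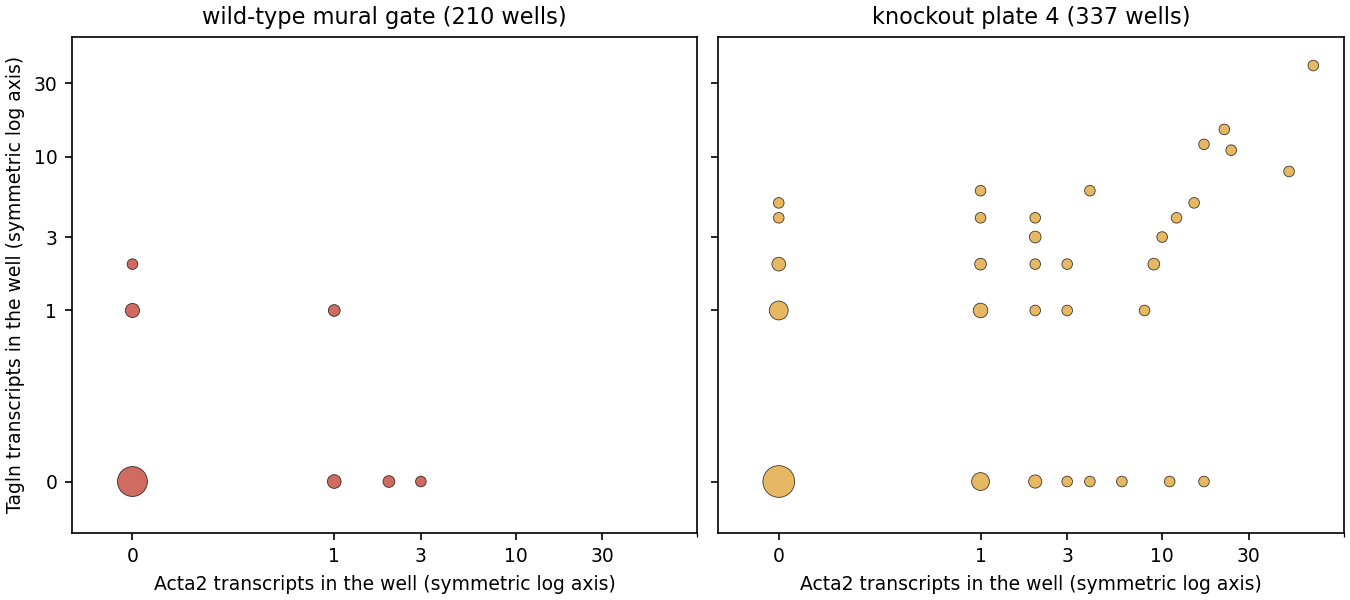
Transcripts of Acta2 (x axis) and Tagln (y axis) in each kept well, on symmetric log axes, with larger points where more wells share the same pair of counts. In the wild-type mural gate no well holds more than 3 Acta2 or 2 Tagln transcripts, while on plate 4 they reach 68 and 39 in the same well.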

How the data were processed

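Bulk values are counts normalized by the authors with DESeq2 size factors, a signal on a per-gene scale. The submitters' processing notes name STAR, featureCounts, DESeq2, BWA 0.6.2-r126 and mm10, and whether counting used strand is not given in the sources used here. Single-cell tables were deposited as transcript numbers per well, corrected by the authors from tagged 3' ends, a unit that need not be whole. Spike-in rows were left out.

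Of the bulk values up to 100 reads, 124078 of 124078 came out as whole reads within 0.01, so depth per library was recovered. The main bulk test was limma 3.58.1 on log2(normalized count + 1) over genes with a mean of at least 10, fitted over all 12 libraries and adjusted over all genes by Benjamini-Hochberg, and a fold change on this scale understates the change of low genes. On recovered reads edgeR 4.0.16 called 4236 genes higher in mural of 20752 (20.4%) and DESeq2 1.42.0 called 4655 of 23179 (20.1%). The same 3 brains gave all populations, which pairs the libraries, and residuals of libraries of one brain correlated at -0.0540 to 0.0801. Single-cell transcripts of wells with more than 1500 were summed per plate and gate, rounded and tested with edgeR's quasi-likelihood test, with plates as replicates. Which of the 3 wild-type brains each plate holds is not given in the sources used here, so p-values measure the spread between plates, which may be technical. No doublet caller was run. Well shares carry exact Clopper-Pearson intervals and ratios exact intervals at 95%, for counting error only, and the floor was 3 counts. Gene models are those of the GRCm38 annotation. Scripts ran in R 4.3.3 and Python 3.11.15 and were tested on simulated data.

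All 10 genes are named, with the 4 called genes furthest from 0 of each companion list, every non-muscle counterpart, and the 6 genes most alike. The members and lists were chosen with earlier results of these data known. Alternatives were pseudocount, filter, normalization, brain block, other tests, thinning and leaving out libraries.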

Additional observations from a re-analysis of the deposited data

Results flagged for a closer look

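Des stood apart in 1 of the 4 libraries of plate 4, with 28.6 CPM (transcripts of the gene in 1000000) in library 1 against 52.05, 50.4 and 54.3 in libraries 2, 3 and 4. The gap to the nearest library was 0.847 of the range, above the critical value for 4 samples. Such a gap arises by chance in about 1 of 20 groups, and 9 genes were looked at.

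Wells sorted with medium to low PDGFRB, which belong to none of the 4 gates compared, held Myl9 and Mylk. Of 23 kept wells, 39.1% held Myl9 and 43.5% held Mylk, above the 7.98% and 12.4% of the neural, endothelial and microglial gates together. On knockout plate 6, which has no gate, Acta2 was found in 2% of 350 wells, against 0 of 476 wells of those 3 gates, which were sorted apart from mural cells. Of its 25 Acta2 transcripts 12 lay in 1 well, and 8 wells of the plate held the mural markers. Cald1 was found there in 50% against 36.8% of those gates together and 52.9% of the endothelial gate alone.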

How the results depend on the processing

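Myl9, Mylk, Cald1, Acta2, Des and Tpm2 were called higher against the mean of the 3 other populations under every alternative run. Genes called lower there were 4485, or 2826 with edgeR. Of the 10 genes none was lower, except 1, Cnn1, against endothelial and microglial libraries together, and 0 to 1 when single libraries or brains were left out. Smtn, at 0.07, reversed to -0.07 without Mu-346 alone, gave -0.12 to 0.24 without single brains and reversed to -0.42 against endothelial and microglial libraries, where Actb reversed to -0.26. Tagln against neural reversed to 0.088 with edgeR and 0.078 with DESeq2, and gave -0.35 to 0.35 without single brains.

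Against endothelial libraries, leaving out brains gave 1736 to 1893 genes higher and 1783 to 2206 lower, and 1 of the 10 lower in place of 2. It was also 1 with a pseudocount of 8, no filter, quantile normalization, edgeR and DESeq2. With the replicate block (brain) it was 1, and the block changed no other call of the 10 genes. Against microglial libraries 5 to 7 of the 10 were higher without single brains.

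In single cells, genes higher were 1257, or 763 with DESeq2 and 594 to 1704 without single plates, and genes lower were 770, or 235 with DESeq2 and 128 to 822 without single plates, while 3 to 6 of the 10 genes were higher. Wells with Myl9, Mylk and Cald1 together were 80.5%, or 32.9% thinned and 86.5% with more than 3000 transcripts. Wells with at least 2 of Acta2, Tagln, Cnn1 and Myh11 fell to 0 when thinned. The ratio of Acta2 on plate 4 was 9.30 to 15.9 without single libraries, 8.49 and 20.49 against wild-type plates 1 and 2 alone, 6.49 without its 5 highest wells and 17.6 with the 5 highest wells left out on either side, alternatives chosen after seeing the data. Except where fewer samples or wells enter by construction, the cause was not tested. At 1500 transcripts a well, each gene but Cald1, Myl9 and Mylk was found in at most 4.76% of mural-gate wells.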

Other observations

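Pdlim3, an actin-associated LIM protein of the list of other contractile genes, was found in no mural-gate well but gave 71 transcripts in 26 wells of plate 4, of which 5 also held Acta2. Of these transcripts, 34 lay in wells chosen by mural markers. The neural, endothelial and microglial gates together gave 5 transcripts. In bulk mural libraries it stood at 250.8, 467.96 and 217.9 normalized counts.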
